A study of Mus musculus with 9 samples.

Results

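A group of 10 genes of antigen presentation by the major histocompatibility complex (MHC) was followed in mouse kidney: H2-K1, H2-D1, B2m, Tap1, Tapbp, H2-Aa, H2-Ab1, H2-Eb1, Cd74 and H2-DMa. They were chosen by symbol, and 10 of 10 were among the 13081 genes of the table and passed the filter on low values. Messenger RNA was measured by 3′ end sequencing in kidney tissue from wild-type mice at 3 months of age (young, n = 4) and 16 months of age (old, n = 5), to see what changes with age in animals that carry no mutation. The labels name no treatment other than age, and the study's text gives the mice as C57BL/6. Values are normalised counts, that is the reads of a gene after division by the size factor of its library, and a gene is referred to as called where its adjusted p-value was under 0.05 in a limma fit of log2(normalised count + 1) over 12667 genes.

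MHC class I molecules sit on nearly all nucleated cells and show short peptides from the cell's own proteins to CD8 T cells. A polymorphic heavy chain pairs with β2-microglobulin, and peptides cut by the proteasome reach it through the TAP transporter and the loading complex of the endoplasmic reticulum. MHC class II molecules are pairs of an alpha and a beta chain found mainly on dendritic cells, macrophages and B cells, and can also be induced on other cells by interferon gamma. They are escorted by the invariant chain, which lysosomal proteases remove before H2-DM helps a peptide from engulfed proteins into the groove, where CD4 T cells read it. The mice were C57BL/6, a strain that makes no alpha chain for the second class II molecule, I-E, so that its beta chain H2-Eb1 lacks its usual partner.

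Of the 10 genes, 8 were called, 4 of them higher and 4 lower in old kidneys, where 59.7% of all genes tested were called (29.2% higher and 30.5% lower). The share of called genes among the 10 is thus to be read against a table in which most genes were called. The classical class I heavy chains H2-K1 and H2-D1 and the class II alpha chain H2-Aa fell to less than 50% of the young level. The class II beta chain H2-Ab1 fell by 0.30 on the log2 scale, but its sign turned when a transcript length trend was removed. Tapbp, H2-Eb1, Cd74 and H2-DMa rose by 1.35- to 1.5-fold. B2m, the light chain of class I molecules, and Tap1 were not called. The median log2 fold change of the 10 genes was -0.16, beside -0.00 for all genes tested. In 7 of the 10 genes the young and old libraries did not overlap, 3 higher and 4 lower in old, where 49.0% of all genes tested did not overlap (23.3% higher and 25.7% lower).

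**Figure D1:**
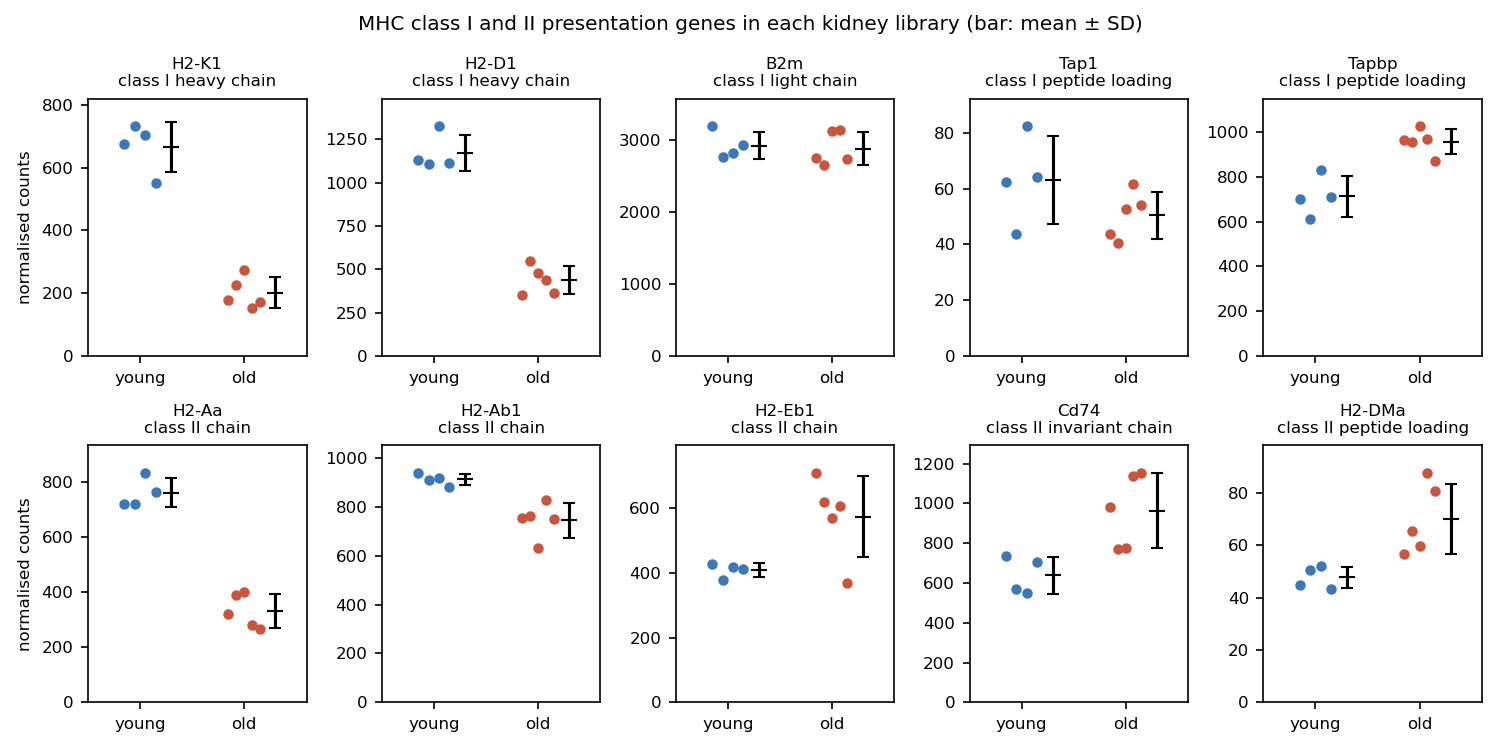
Normalised counts (y axes, from 0) of the 10 genes in each of the 4 young and 5 old kidney libraries; each point is 1 library and the bar gives mean ± SD. H2-K1, H2-D1 and H2-Aa are lower in every old library, B2m and Tap1 overlap between ages, and Tapbp, Cd74 and H2-DMa are higher in every old library.

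The table held 5093029 to 6355095 reads in the young libraries and 4486406 to 5794960 in the old libraries. Mitochondrial genes took 27.0% to 29.7% of the normalised counts in young libraries and 35.8% to 38.1% in old libraries. Without these genes, and with all libraries brought to equal totals, the median log2 fold change of all genes moved by 0.14, so changes of this size depend on the scaling. Sample titles carried 1 prefix for the young and another for the old libraries, so preparation and age cannot be told apart where they follow the same prefix. Kidney identity was clear from 10 of 10 tubule and podocyte markers in the table, 6 of them called higher and 1 lower in old kidneys, where 29.2% of all genes were called higher and 30.5% lower. The one called lower was Kap, which had the most counts, at 141046 to 173437 normalised counts in young and 84037 to 123051 in old kidneys. In whole tissue, fewer cells of a type and less RNA per cell cannot be told apart.

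Promoters of genes that fell, rose or were not called are shown as the 250 bases before the RefSeq start on GRCm38.p6 (8 of the 10 genes matched a promoter), except where noted. The set holds both class I heavy chains that fell, their light chain that was not called, and a class II alpha chain that fell beside a beta chain that rose. The last line is the 225-base stretch between the divergent RefSeq starts of Tap1 and Psmb9, read along the Tap1 strand. All are printed 5′ to 3′ on the strand of the gene, with motif matches on either strand in capitals.

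H2-K1 (chr17:34000334-34000583, minus strand): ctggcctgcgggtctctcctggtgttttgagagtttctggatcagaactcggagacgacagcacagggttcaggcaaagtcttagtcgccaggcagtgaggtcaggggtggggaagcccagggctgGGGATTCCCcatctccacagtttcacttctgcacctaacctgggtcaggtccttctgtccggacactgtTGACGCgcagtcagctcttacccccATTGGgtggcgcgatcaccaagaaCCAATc
H2-D1 (chr17:35262844-35263093, plus strand): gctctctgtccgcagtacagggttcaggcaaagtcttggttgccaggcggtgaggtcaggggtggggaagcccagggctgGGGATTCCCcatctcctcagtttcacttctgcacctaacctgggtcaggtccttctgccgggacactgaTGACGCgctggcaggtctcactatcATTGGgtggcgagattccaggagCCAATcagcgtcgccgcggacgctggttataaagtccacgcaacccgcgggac
B2m (chr2:122147437-122147686, plus strand): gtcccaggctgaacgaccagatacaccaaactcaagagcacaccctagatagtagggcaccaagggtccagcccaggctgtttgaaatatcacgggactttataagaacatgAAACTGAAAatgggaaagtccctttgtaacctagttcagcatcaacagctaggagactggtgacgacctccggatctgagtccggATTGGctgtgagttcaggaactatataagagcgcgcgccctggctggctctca
H2-Aa (chr17:34287824-34288073, minus strand): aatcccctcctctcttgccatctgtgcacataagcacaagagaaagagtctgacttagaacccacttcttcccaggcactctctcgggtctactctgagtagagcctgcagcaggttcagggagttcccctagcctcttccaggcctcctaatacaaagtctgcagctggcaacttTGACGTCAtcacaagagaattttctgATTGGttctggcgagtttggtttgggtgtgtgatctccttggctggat
H2-Eb1 (chr17:34305617-34305866, plus strand): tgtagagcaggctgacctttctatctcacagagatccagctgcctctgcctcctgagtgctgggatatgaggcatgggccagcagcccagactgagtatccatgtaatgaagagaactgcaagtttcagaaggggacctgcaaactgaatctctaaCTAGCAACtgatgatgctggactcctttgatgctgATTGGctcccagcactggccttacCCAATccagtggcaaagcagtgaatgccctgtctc
Tap1 to Psmb9 (chr17:34187331-34187555, plus strand): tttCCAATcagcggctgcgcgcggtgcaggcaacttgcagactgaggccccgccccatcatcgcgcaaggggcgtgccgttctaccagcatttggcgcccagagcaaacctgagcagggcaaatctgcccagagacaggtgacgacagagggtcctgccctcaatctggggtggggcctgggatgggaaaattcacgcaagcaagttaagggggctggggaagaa

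Capitals mark matches to 6 searched motifs on both strands. The NF-Y box CCAAT was found at 1 or more starts of each of the 8 genes with a promoter. It was in 33.8% of 32851 single promoters of the same length, and 1 start of H2-DMa had no match. An NF-kB site, GGGATTCCC, was found in H2-K1 and H2-D1 and in 0.301% of all promoters. It was also matched in H2-Q6, H2-Q7 and 1 start of Irf1, genes of the class I pathway list. The X2 letters TGACGC, also matched in H2-K1 and H2-D1 and in none of the other 6, occurred in 6.12% of all promoters. Other forms of the X2 box were not searched, so these letters do not show which class II promoters hold one. The letters TTTCNNTTT, searched for the interferon-stimulated response element, were matched in B2m and at 1 start of H2-DMa, against 9.37% of all promoters. H2-K1 and H2-D1 both hold tttcacttc, which departs from these letters only in its last base. The search thus does not show that the element is missing from H2-K1 and H2-D1. For the class II chains, the X1 letters CTAGNAAC were matched in H2-Eb1 (3.06% of all promoters), and the cAMP response element TGACGTCA in H2-Aa (1.55% of all promoters). A match is a string of letters and says nothing of a factor bound there, and elements with other letters were left unmarked.

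H2-K1 encodes the K heavy chain, which presents peptides to CD8 T cells, and lies at chr17:33996017-34000347 (minus strand, GRCm38). Its normalised counts were 675, 732, 703 and 550.4 in the young libraries and 179, 228, 274, 154 and 171 in the old libraries. The lowest young library lay above the highest old library. The mean fell from 665 ± 79.8 (SD, n = 4) to 201 ± 49.0 (SD, n = 5), a log2 fold change of -1.74 (SE 0.15), or 3.35-fold lower in old kidneys (limma adjusted p = 1.11e-08).

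H2-D1 encodes the D heavy chain, the other classical class I molecule of this strain, and lies at chr17:35262730-35267499 (plus strand). It had 1130.2, 1109.6, 1325 and 1111 normalised counts in young and 352, 548, 481, 437 and 366 in old kidneys. No library of one age reached the range of the other, and young 3 stood above its group. H2-D1 fell by 1.43 on the log2 scale (SE 0.12), which is 2.70-fold (limma adjusted p = 1.24e-08). Heavy chain genes share sequence: 11.8% of the 50-base windows in the last 500 bases of H2-K1 and 18.8% of those of H2-D1 occur in another gene, mostly other class I genes and pseudogenes, so the split of reads between them is uncertain to that degree.

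B2m encodes the light chain of class I molecules and lies on chromosome 2 rather than in the MHC (chr2:122147686-122153083, plus strand). In the young libraries it had 3195, 2762, 2821 and 2929.5 normalised counts, and in the old libraries 2759, 2653, 3129, 3147 and 2744. These ranges overlapped almost in full. Its log2 fold change was -0.02 (SE 0.09, 95% interval -0.21 to 0.17) with an adjusted p of 0.853 in limma, and the sign turned with the scaling, to 0.12 with mitochondrial genes left out. With a transcript length trend removed, an alternative chosen after the data were seen, B2m was called higher (0.37, limma adjusted p = 0.0025).

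Plain ratios within a library do not depend on its size factor, so they set the heavy chains beside their light chain directly. The tests and fold changes of the ratios used normalised counts with 1 added, which leaves some dependence on the size factor for low genes. The ratio of H2-K1 to B2m was 0.228 ± 0.0351 (SD, n = 4) in young and 0.0699 ± 0.0165 (SD, n = 5) in old kidneys. That of H2-D1 to B2m was 0.401 ± 0.0497 in young and 0.152 ± 0.0320 in old kidneys. Both ratios were lower in every old library than in any young library, 3.30-fold and 2.66-fold in turn. Each gave p = 0.0159 in a two-sided exact permutation test of the age labels, the smallest this design allows, and an adjusted p of 0.019 over 12 ratios. The ratio of H2-K1 to H2-D1 went from 0.571 ± 0.0726 to 0.462 ± 0.0835, a difference that missed the threshold (log2 difference -0.31, exact permutation p = 0.0952, adjusted p = 0.104).

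The class I pathway list held 31 further genes, of which 22 were in the table and tested. Of these, 3 rose, 10 fell and 9 were not called, with a median log2 fold change of -0.31, and the share called was near the 59.7% of all genes tested. In the alternatives up to 17 were called. With mitochondrial genes left out, Mr1, Fcgrt, Erap1 and Psme1 were also called higher. Among the 8 other heavy chain genes and their relatives, H2-T23, H2-T22, H2-Q6 and H2-Q7 (4 genes) fell and none was called higher in limma, where 30.5% of all genes were called lower and 29.2% higher. H2-T23 encodes Qa-1, a nonclassical molecule that shows leader peptides of other class I chains to natural killer cells. Its normalised counts were 77.0, 72.9, 76.5 and 94.2 in young and 5.89, 10.9, 5.07, 5.60 and 7.43 in old kidneys. Every old library was far below every young library, and the log2 fold change of H2-T23 was -3.38 (SE 0.26, limma adjusted p = 4.06e-09). H2-T22, whose product can be bound by gamma delta T cells, fell by 1.78 (SE 0.14) from 191 ± 26.0 to 54.5 ± 4.07. The Qa-2 genes H2-Q6 and H2-Q7 fell by 0.88 and 0.70. H2-Q4 (-0.31, adjusted p = 0.341 in limma) and the pseudogene H2-K2 (-0.14, 0.743) were not called, H2-K2 turning in sign with the length trend removed. Nor were Mr1, which presents microbial vitamin metabolites (0.68, 0.0565), and Fcgrt, the neonatal Fc receptor, which pairs with B2m but presents no peptide (0.19, 0.142). Both passed the threshold with mitochondrial genes left out (limma adjusted p = 0.0268 and 0.00869) and with the length trend removed (0.0375 and 0.00089), as did Mr1 without young 4 (0.0473) or old 1 (0.0432) and Fcgrt without old 3 (0.0455). In the last 500 bases, 42.9% of the windows of H2-Q6, 31.6% of H2-T22 and 17.9% of H2-T23 were shared with other genes.

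**Figure D2:**
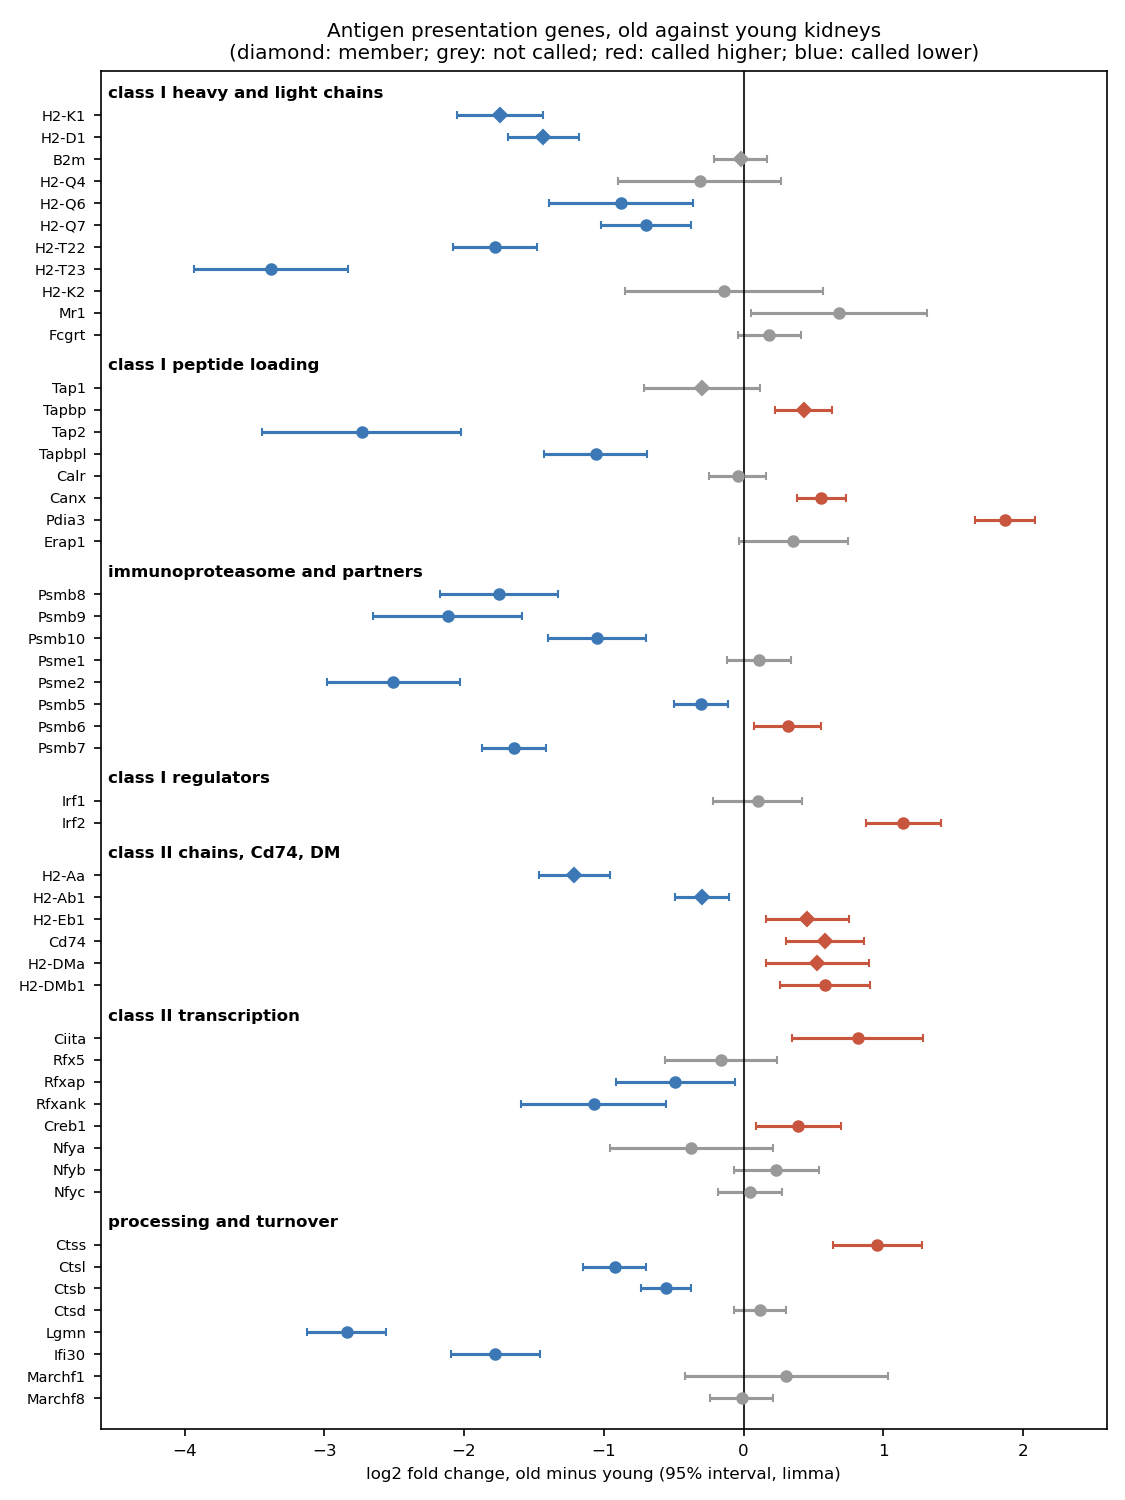
Log2 fold change of old minus young kidneys (x axis) with its 95% interval from limma for the 10 genes (diamonds), listed genes of both pathways and the constitutive proteasome subunits (circles), grouped by role on the y axis. Red marks genes called higher, blue genes called lower and grey genes not called; class I chains and immunoproteasome genes lie mostly to the left, from -3.38 for H2-T23, and Pdia3 lies farthest to the right at 1.87.

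Tap1 and Tap2 form the transporter that carries peptides into the endoplasmic reticulum, and the transporter needs both chains. Tap1 (chr17:34187553-34197225, plus strand) had 62.2, 43.7, 82.4 and 64.3 normalised counts in young and 43.6, 40.5, 52.7, 61.6 and 54.1 in old kidneys. The ages overlapped, and Tap1 was not called (log2 fold change -0.30, SE 0.20, limma adjusted p = 0.205). Tap2 had 79.4, 59.3, 80.4 and 100.5 in young and 22.4, 8.75, 6.08, 19.6 and 6.37 in old kidneys. All old libraries lay far below the young libraries, and Tap2 fell by 2.73 (SE 0.34), or 6.65-fold (limma adjusted p = 1.42e-06). The ratio of Tap1 to Tap2 therefore rose, from 0.640 to 1.02 across young libraries to 1.95 to 8.67 across old libraries (log2 difference 2.43, exact permutation p = 0.0159, adjusted p = 0.019).

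Tapbp encodes tapasin, which bridges the transporter and the class I heavy chain and edits the bound peptide (chr17:33915899-33929292, plus strand). It had 703, 610.2, 833 and 711 normalised counts in young and 965, 955, 1026, 971 and 869.9 in old kidneys. Every old library was higher than every young library. Tapbp rose by 0.43 (SE 0.10) on the log2 scale, 1.35-fold (limma adjusted p = 0.00106). Its neighbour Zbtb22 overlaps it on the same strand, and 2.15% of the windows in its last 500 bases are shared with that gene.

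The other loading genes did not move one way. Pdia3, encoding the disulfide isomerase ERp57 that pairs with tapasin, rose by 1.87 (SE 0.10), from 471 ± 55.9 to 1722 ± 161. Canx, encoding the chaperone calnexin, rose by 0.56 (SE 0.09). Tapbpl, encoding TAPBPR, a peptide editor related to tapasin, fell by 1.06 (SE 0.18), with 17.96% of its last windows shared with other genes. Calr, encoding calreticulin (-0.04), and Erap1, the aminopeptidase that trims peptides in the endoplasmic reticulum (0.36), were not called (limma adjusted p = 0.729 and 0.104). The sign for Calr turned with mitochondrial genes left out, and Erap1 was then called. Pdia3, Canx and Calr also serve the folding of many other glycoproteins.

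The immunoproteasome cuts peptides with ends that suit class I grooves, using 3 catalytic subunits that take the place of those of the constitutive proteasome. All 3 fell in old kidneys, with log2 fold changes of -1.75 for Psmb8 (SE 0.20), -2.12 for Psmb9 (SE 0.25) and -1.05 for Psmb10 (SE 0.17). Psmb9 had 62.2, 48.6, 52.0 and 48.9 normalised counts in young and 15.3, 12.03, 14.2, 8.40 and 8.49 in old kidneys, without overlap. Of the 2 genes of the PA28 activator ring, Psme2 fell by 2.50 (SE 0.23) and Psme1 was not called (0.11, limma adjusted p = 0.399), although it passed with mitochondrial genes left out (adjusted p = 0.0454) and with the length trend removed (0.36, 0.008). Of the Psme2 windows, 32.1% are shared, with Psme2b and a pseudogene. In all, 4 of 5 genes of this group fell, where 30.5% of all genes tested were called lower.

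The 3 constitutive counterparts went separate ways. Psmb7, the counterpart of Psmb10, fell by 1.64 (SE 0.11), from 895 ± 54.8 to 288 ± 42.8. Psmb5, the counterpart of Psmb8, fell by 0.31, a call lost with mitochondrial genes left out (-0.16), and its sign turned with the length trend removed (0.09). Of the Psmb5 windows, 54.5% are shared with Gm3375, so its counts and its ratio to Psmb8 are uncertain to that degree. Psmb6, the counterpart of Psmb9, rose by 0.32, and that call was lost under scaling to the table total (limma adjusted p = 0.0517) and without any 1 of young 2, young 4, old 4 or old 5 (0.0595 to 0.078). Within libraries, Psmb8 relative to Psmb5 fell 2.72-fold and Psmb9 relative to Psmb6 fell 5.40-fold, whereas Psmb10 relative to Psmb7 rose 1.51-fold. Each gave an exact permutation p of 0.0159 and an adjusted p of 0.019, and none of the 3 ratios overlapped between ages.

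Among interferon-responsive regulators of class I, Irf2, a repressor and activator at interferon response elements, rose by 1.14 (SE 0.13), from 164 ± 14.9 to 365 ± 62.7. Irf1, an activator, was not called (0.10, limma adjusted p = 0.581), and Nlrc5 was not in the table.

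Among the class II chains the alpha and beta genes parted. H2-Aa encodes the alpha chain of I-A, the class II molecule this strain displays (chr17:34282744-34287823, minus strand). Its normalised counts were 722, 722, 833 and 766 in young and 321, 389, 401, 283 and 267 in old kidneys. The highest old library was below 60% of the lowest young library. H2-Aa fell by 1.21 (SE 0.12), or 2.31-fold (limma adjusted p = 1.08e-07).

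H2-Ab1 encodes the beta chain that pairs with H2-Aa (chr17:34257689-34269419, plus strand). It had 938, 910.4, 917 and 882 normalised counts in young and 753, 761, 631, 827 and 750.0 in old kidneys. All old libraries were lower, though by a small margin. The log2 fold change was -0.30 (SE 0.09, limma adjusted p = 0.0103). That call was lost with mitochondrial genes left out (-0.15, limma adjusted p = 0.129), and the sign turned with the length trend removed (0.06, 0.611), so both the call and the direction depend on the processing.

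H2-Eb1 encodes the beta chain of I-E (chr17:34305867-34316674, plus strand). The young libraries had 428, 379, 419 and 411 normalised counts and the old libraries 708, 619, 568, 605 and 368. Old 5 lay below all young libraries, and the other 4 old libraries lay above them. H2-Eb1 rose by 0.46 (SE 0.14), 1.37-fold (limma adjusted p = 0.00981). Without old 5 the rise was 0.61.

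Within libraries, H2-Aa relative to its partner H2-Ab1 went from 0.770 to 0.909 in young kidneys to 0.342 to 0.635 in old kidneys, 1.88-fold lower. H2-Eb1 relative to H2-Ab1 went from 0.416 to 0.466 in young kidneys to 0.491 to 0.941 in old kidneys, 1.68-fold higher. Both ratios separated the ages without overlap (exact permutation p = 0.0159, adjusted p = 0.019), and both calls held in each alternative run for the ratios. Thus the 3 neighbouring class II chain genes did not change by the same factor.

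Cd74 encodes the invariant chain, which fills the class II groove during transport and also acts as a receptor for the cytokine MIF. It had 734, 569, 549 and 705 normalised counts in young and 983, 771, 775, 1139 and 1153 in old kidneys. Every old library was above the highest young library. Cd74 rose by 0.58 (SE 0.13), 1.5-fold (limma adjusted p = 0.001). H2-Ab1 relative to Cd74 fell 1.84-fold, from 1.45 ± 0.216 to 0.789 ± 0.126 (exact permutation p = 0.0159, adjusted p = 0.019).

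H2-DMa and H2-DMb1 encode the chains of H2-DM, the lysosomal exchanger that removes the remnant of the invariant chain. H2-DMa (chr17:34119541-34139101, plus strand) had 45.0, 50.5, 52.0 and 43.5 normalised counts in young and 56.6, 65.6, 59.8, 87.7 and 80.6 in old kidneys. No young library reached the lowest old library. H2-DMa rose by 0.53 (SE 0.18, limma adjusted p = 0.0148) and H2-DMb1 by 0.58 (SE 0.15, limma adjusted p = 0.00305). Their ratio was 0.815 ± 0.131 in young and 0.795 ± 0.177 in old kidneys, a log2 difference of -0.05 (exact permutation p = 0.794) whose sign turned when young 2, old 1 or old 2 was left out. H2-DMa overlaps the transcript CR974462.3 on the same strand, and 27.5% of the last windows of H2-DMb1 are shared with H2-DMb2.

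**Figure D3:**
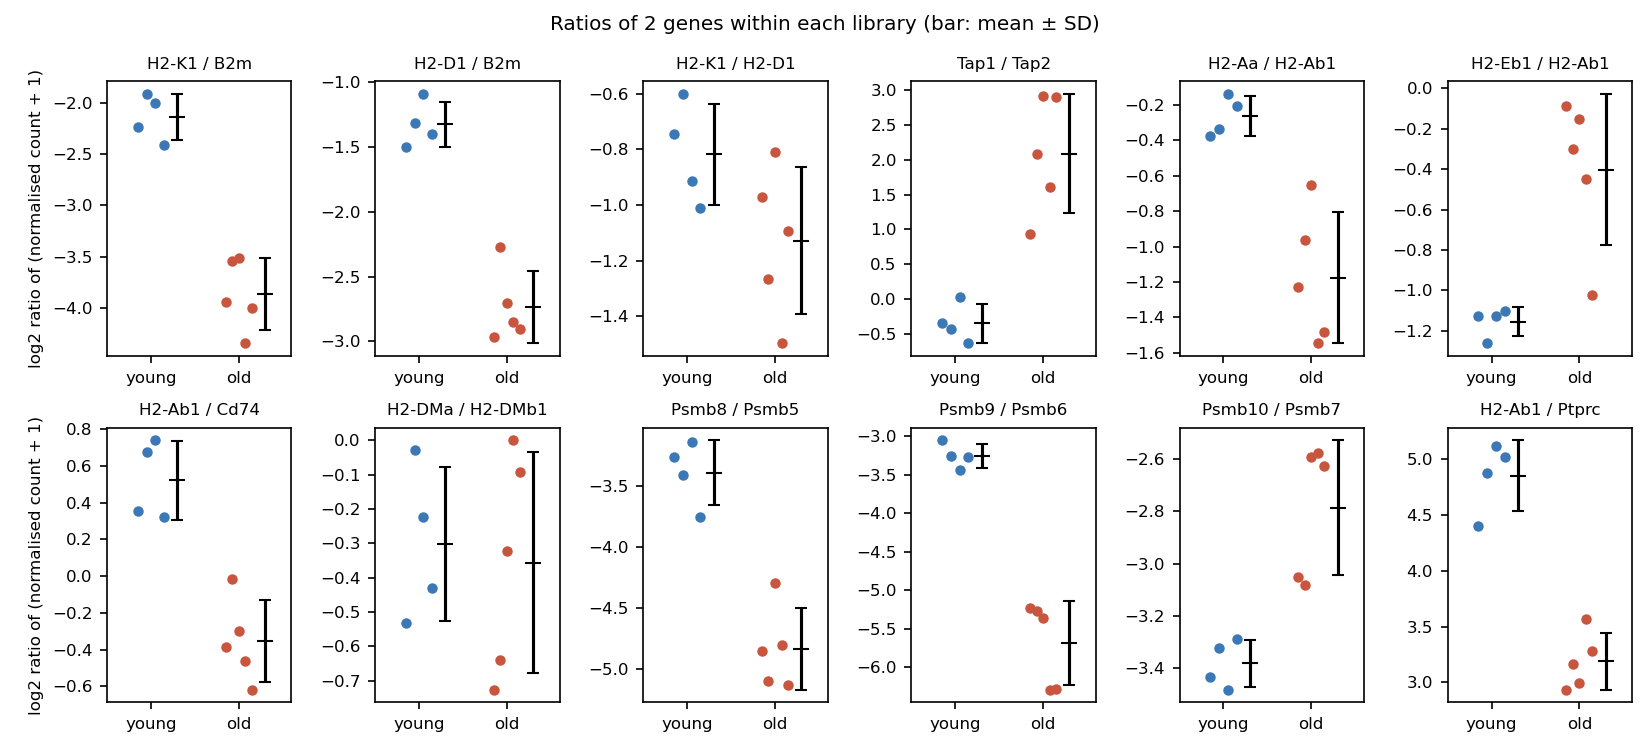
Log2 ratio of (normalised count + 1) of 2 genes within each library (y axes), for 12 ratios in 4 young and 5 old kidneys; points are libraries and bars give mean ± SD. The ages do not overlap in 10 ratios and overlap for H2-K1 / H2-D1 and H2-DMa / H2-DMb1; the axes do not start at 0 and differ between panels.

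The class II pathway list gave 17 further tested genes of 25 symbols, 2 of which are older names of listed genes. Of the 17, 4 rose, 6 fell and 7 were not called, with a median log2 fold change of -0.01, and this share called was again near the 59.7% of all genes. With mitochondrial genes left out, Nfyb and Ctsd were also called higher and Rfxap was no longer called lower, so the balance of directions depends on the scaling. H2-Ea, H2-Eb2, H2-Oa, H2-Ob and H2-DMb2 were not in the table. Ciita, encoding the master activator of class II transcription, had 17.2, 23.3, 29.4 and 19.0 normalised counts in young and 43.6, 39.4, 36.5, 32.6 and 44.6 in old kidneys. All old libraries were higher, and Ciita rose by 0.82 (SE 0.22), 1.76-fold (limma adjusted p = 0.00407).

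The factors that hold Ciita at class II promoters are the RFX complex on the X1 box, CREB1 on the X2 box and NF-Y on the CCAAT box. Rfxank fell by 1.07 (SE 0.25, limma adjusted p = 0.00106), from 38.9 ± 9.19 to 17.9 ± 3.72. Rfxap fell by 0.49 (limma adjusted p = 0.0455) but lost the call in 9 of 19 alternatives, among them leaving out any 1 of young 1, 3 or 4 or old 1, 3 or 5 (0.0676 to 0.154). Creb1 rose by 0.39 (limma adjusted p = 0.0272), a call lost under scaling to the table total (0.074) or without young 3, young 4, old 1 or old 3 (0.0585 to 0.0762), and its sign turned with the length trend removed (-0.04). Rfx5 (-0.16), Nfya (-0.37), Nfyb (0.23) and Nfyc (0.05) were not called (limma adjusted p = 0.485, 0.258, 0.174 and 0.733), although Nfyb passed with mitochondrial genes left out (0.0291) and Nfyc with the length trend removed (0.0287). The sign for Nfyc turned under scaling to the table total.

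Of the 6 genes for lysosomal processing of antigen and invariant chain, 1 rose, 4 fell and 1 was not called, where 29.2% of all genes were called higher and 30.5% lower. Lgmn encodes legumain, an asparagine endopeptidase that makes early cuts in antigen and invariant chain. It had 1151, 1134, 1242 and 1107 normalised counts in young and 123, 202, 129.8, 174 and 191 in old kidneys. Lgmn was lower in every old library, with a log2 fold change of -2.84 (SE 0.14), or 7.16-fold lower (limma adjusted p = 7.04e-12). Ifi30, encoding the interferon-inducible thiol reductase GILT that opens disulfide bonds of antigens, fell by 1.78 (SE 0.15), from 306 ± 26.2 to 90.3 ± 22.2. Cathepsin genes parted: Ctsl fell by 0.92 (SE 0.11) and Ctsb by 0.56 (SE 0.09). Ctss, encoding cathepsin S, which trims the invariant chain in antigen-presenting cells, rose by 0.96 (SE 0.15), from 97.0 ± 13.8 to 190.5 ± 35.3. Ctsd (0.12) was not called (limma adjusted p = 0.277), but it passed with mitochondrial genes left out (0.0181) and with the length trend removed (0.00232). Lgmn, Ctsl and Ctsb are also lysosomal genes of the tubule itself. Marchf1 and Marchf8, encoding ubiquitin ligases that mark class II for turnover, were not called (0.31 and -0.01, limma adjusted p = 0.463 and 0.919), and the sign for Marchf8 turned with mitochondrial genes left out (0.13).

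Markers of the cells that carry class II were set beside these values. Of 10 leukocyte markers, 9 were tested, 2 rose and 1 fell, a smaller share called than the 59.7% of all genes, and their median log2 fold change was -0.19. Their summed normalised counts ran from 411 to 484 in young and from 420.1 to 577 in old kidneys, overlapping. Ptprc, encoding the leukocyte antigen CD45, had 43.4, 30.1, 25.5 and 26.3 in young and 97.8, 84.2, 78.1, 69.0 and 76.4 in old kidneys and rose by 1.37 (SE 0.19). Relative to Ptprc, H2-Ab1 was 30.3 ± 6.28 in young and 9.32 ± 1.70 in old kidneys, 3.17-fold lower (exact permutation p = 0.0159, adjusted p = 0.019). This ratio rests on Ptprc, the marker that rose most in a list whose median was below 0. Arhgdib also rose (0.62, SE 0.19), from 51.5 ± 9.86 to 80.4 ± 20.8. Of the other 7 markers tested, none was called higher in limma: Cd52, with the highest mean of the list, was at 76.3 ± 7.92 in young and 69.6 ± 13.3 in old kidneys and was not called (limma adjusted p = 0.473), and Coro1a, named after its values were seen, fell by 0.68 in limma (adjusted p = 0.0393) but was not called by edgeR (0.0505) or DESeq2 (0.0537).

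Of 10 macrophage markers, 4 rose and 2 fell, a share near the 59.7% called over all genes, and their sums were 624 to 709 in young and 639.9 to 896 in old kidneys. Mrc1, encoding the mannose receptor, rose by 1.66 (SE 0.34), and Cx3cr1, a chemokine receptor gene, rose by 1.17 (SE 0.21). C1qc, a complement gene, and Ctsc, encoding cathepsin C, fell by 0.83 and 0.74. The related genes C1qa and C1qb, named after their values were seen, did not fall. C1qa rose by 0.56 (limma adjusted p = 0.00493) and C1qb was not called (0.21, limma adjusted p = 0.27). Csf1r, with the most counts of the list, was not called (0.18, limma adjusted p = 0.285). Dendritic cell markers were scarce, with 4 of 10 in the table and 2 tested, neither called, and sums of 62.5 to 77.7 in young and 48.1 to 123 in old kidneys. Flt3, Clec9a, Cd209a, Ccr7, Siglech and Clec10a were not in the table.

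Of 10 B and plasma cell markers, 3 were in the table, and each rose, where 29.2% of all genes were called higher: Ighm by 3.31, Igkc by 2.15 and Jchain by 1.80. The summed counts were 241 to 695 in young and 910.4 to 3231 in old kidneys. Ighm and Igkc encode antibody chains, which are both secreted and carried on the B cell surface, and Jchain joins secreted antibodies. The B cell genes Cd79a, Cd79b and Ms4a1 were not in the table. Of the T cell markers, 3 of 10 were in the table and 2 were tested, with sums of 15.5 to 29.9 in young and 16.97 to 47.1 in old kidneys. Trac rose by 1.01 (SE 0.37, limma adjusted p = 0.0266). Its normalised counts, 4.86 to 18.1 in young and 10.6 to 29.8 in old kidneys, were low and overlapped between ages. Trbc2 was not called (-0.88, limma adjusted p = 0.238). Endothelial markers rose in 5 of 10 genes, where 29.2% of all genes were called higher, and the other 5 were not called, with sums of 2100 to 2267 in young and 2605 to 2937 in old kidneys. The part of these cell types in the changes of the MHC genes was not tested.

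**Figure D4:**
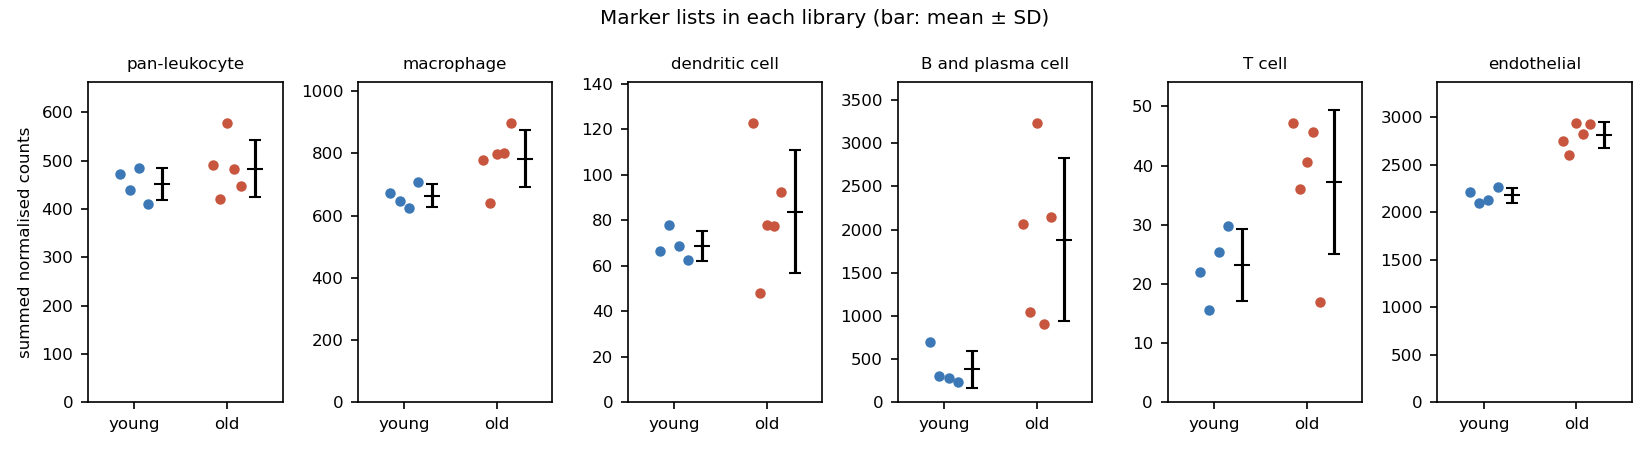
Summed normalised counts (y axes, from 0) of 6 lists of cell type markers in 4 young and 5 old kidney libraries; points are libraries and bars give mean ± SD. The B and plasma cell and endothelial sums do not overlap between ages, whereas the leukocyte, macrophage, dendritic cell and T cell sums do.

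Most of these genes are neighbours. Between the left end of H2-K1 and the right end of H2-D1 (chr17:33996017-35267499, 1271.5 kb, GRCm38), 56 genes were tested and 38 were called (67.9%), 14 higher and 24 lower, beside 59.7% of all genes tested. The 11 listed presentation genes there had 10 calls, 3 higher and 7 lower, and the 45 other genes had 28 calls (62.2%), 11 higher and 17 lower. Tap1 and Psmb9 lie head to head on opposite strands, with gene models that overlap by about 211 bases at their starts in GENCODE, and Psmb9 was at -2.12 whereas Tap1 was not called. H2-Ab1, H2-Aa and H2-Eb1 follow each other with log2 fold changes of -0.30, -1.21 and 0.46. Of the genes in none of the lists, Rnf5, a ubiquitin ligase gene chosen after its values were seen, lay at -4.18. The highest point of the region, Gm23442, averaged 0.409 normalised counts in young kidneys, under the floor of 3 reads, so that its height depends on the pseudocount.

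**Figure D5:**
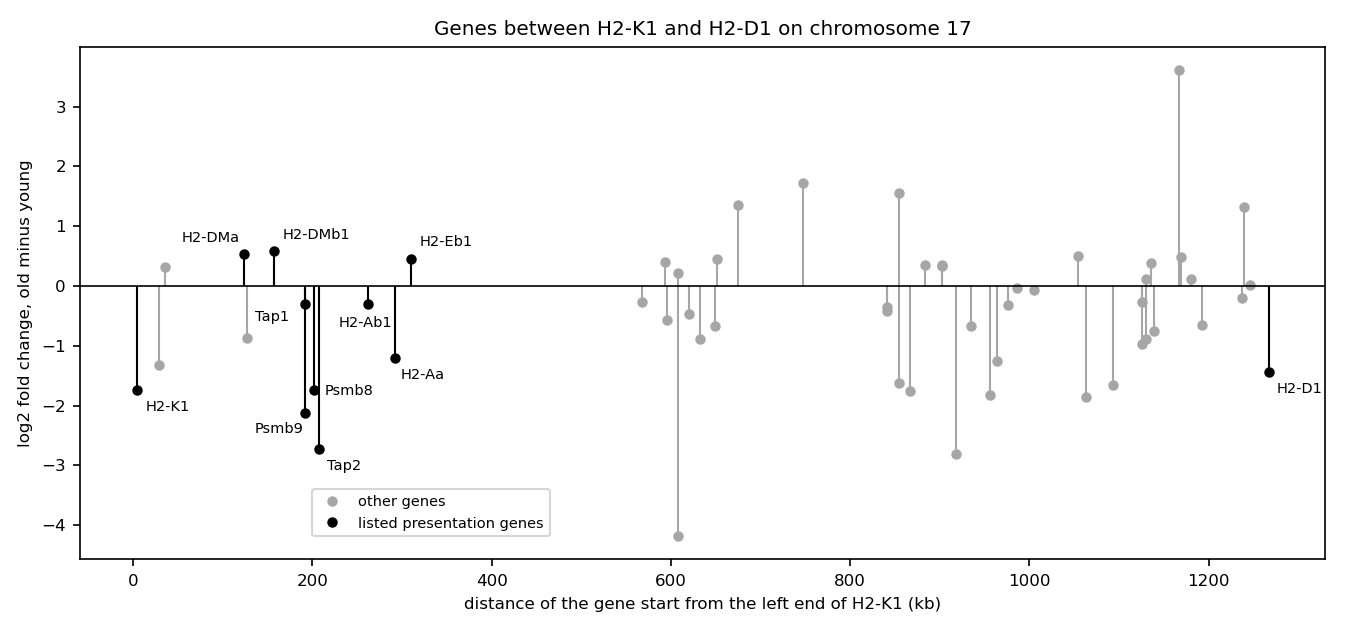
Log2 fold change of old minus young kidneys (y axis) for the 56 tested genes from H2-K1 to H2-D1, against the distance of the gene start from the left end of H2-K1 in kb (x axis). Listed presentation genes are black and labelled, others grey; neighbours lie on both sides of 0, as H2-Aa at -1.21 and H2-Eb1 at 0.46.

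Genes whose levels varied with the MHC genes among libraries of the same age were found from the deviations of each library from the mean of its age group, over 9 libraries and 8141 genes averaging 50 or more normalised counts. For the class II genes H2-Aa, H2-Ab1, H2-Eb1 and Cd74, the highest Pearson correlations included those of Slc22a8 (0.968), Mif (0.956), Tmem19 (0.955) and Selenom (0.929). For H2-K1, H2-D1 and B2m they were those of Ccdc84 (0.974), Als2cl (0.968), Wiz (0.951), Psma5 (0.937) and Dhx36 (0.932). These are the top of 8141 values over few libraries that share their size factors, and are given as a description only.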

How the data were processed

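Kidney RNA was made into 9 stranded 3′ end libraries. Per the study's methods and the submitters' processing notes, the authors aligned reads to GRCm39 with TopHat2 2.0.10, assigned them to GENCODE vM26 genes on the sense strand with HTSeq 0.6.1 and normalised them with DESeq. The deposited values are a count-like signal, the authors' size-factor-normalised counts. In every library 100% of the values were whole multiples (tolerance 0.001) of the smallest positive one, so whole reads were recovered. The lowest gene mean was 4.49 normalised counts, so genes with fewer reads had been left out by a rule that was not stated, and depths cover the listed genes alone. A floor of 3 reads was 4.72e-05% to 6.69e-05% of a library and covers counting error only.

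Ages came from the labels. Library numbers follow listing order. The labels do not state that each library came from a separate animal, so p-values measure the spread between these libraries. Genes reaching 10 normalised counts in 4 or more libraries were tested with limma 3.58.1 (trend, R 4.3.3) on log2(normalised count + 1), which understates changes of low genes, with Benjamini-Hochberg adjustment over 12667 genes. The 12 ratios were tested by exact two-sided permutation. The quasi-likelihood test of edgeR 4.0.16 on the reads called 7649 genes (7489 shared with limma), and DESeq2 1.42.0 called 7532 (7425 shared; 9 without an adjusted p). In data simulated for old against young over 12596 genes, limma recovered 97% of 2-fold and 100% of 4-fold changes. Only 200 genes, none of them low, were changed, and all genes had the same fixed noise level, not taken from these libraries. These rates thus do not give the recovery for low genes or for the real noise between libraries.

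The other alternatives were pseudocounts of 0.1 and 5, no filter, a filter on a mean of 100, TMM factors, the table total, mitochondrial genes left out, robust limma and leaving out each library. Removal of a transcript length trend was added after the data were seen. Same-age libraries differed by 3.06 to 14.8 times counting noise (chi-square per degree of freedom), so none was counted as a duplicate. Genes were matched by symbol to GENCODE vM21 on GRCm38 (98.3% matched), which is not the authors' build and gave coordinates and shared sequence. Promoters came from RefSeq. The 10 genes and all lists were chosen with earlier results of these data known. The text may name the 10 genes, any gene of the pathway and proteasome lists, from each marker list the genes with the lowest adjusted p or the highest mean and those absent, and the 5 genes most like each class. Some genes of these lists are not reported here.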

Additional observations from a re-analysis of the deposited data

Results flagged for a closer look

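Among 64 groups of 4 or 5 libraries checked for 1 library far from the rest, 2 stood out, and about 3.2 would by chance. H2-D1 in young 3 was at 10.37 on the log2(normalised count + 1) scale, where the other young libraries lay between 10.12 and 10.14, a gap of 0.896 of the whole range. That library held 5193898 reads. The summed T cell markers in old 5 were at 4.17 on the log2 scale, where the other old libraries lay between 5.21 and 5.59, a gap of 0.735 of the range. Old 5, with 5111067 reads, was also the lowest old library for H2-Eb1. No cause was tested.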

How the results depend on the processing

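The calls of H2-K1, H2-D1, Tapbp, H2-Aa, H2-Eb1, Cd74 and H2-DMa held their direction and their side of the threshold in every alternative that tested them, and B2m and Tap1 stayed uncalled except for B2m with the transcript length trend removed. With genes required to average 100 normalised counts, fewer genes were tested, and 4101 genes were called (7568 in the reported fit), 5 of the class I pathway list (13) and 6 of the class II pathway list (10). With mitochondrial genes left out, log2 fold changes turned in sign for B2m (0.12), Calr (0.10) and Marchf8 (0.13), and the higher genes among all called genes went from 48.9% to 58.5%. With the length trend removed they turned for B2m (0.37), H2-Ab1 (0.057), H2-K2 (0.16), Calr (0.18), Creb1 (-0.042) and Psmb5 (0.085), and under scaling to the table total for Nfyc (-0.0058). Leaving out each library in turn, B2m ranged from -0.054 to 0.021, Calr from -0.089 to 0.016, Marchf8 from -0.066 to 0.044 and the log2 ratio of H2-DMa to H2-DMb1 from -0.14 to 0.039. The cause of these changes was not tested. Calls of the other ratios held in all alternatives. Of the values for the pathway genes, 770 kept direction and call, 16 gained a call, 20 lost one and 12 turned in sign. Low genes such as Ciita and Mr1 rest on fewer than 50 normalised counts in every library, which limits their precision. No paired analysis was possible because the labels give the young and old libraries no shared replicate numbers.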
